A study of Mus musculus with 4 samples.

Results

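The genes described here are 32 that encode constitutive subunits of the mouse proteasome, given as a list of symbols. The list leaves out Sem1, the gene of a small lid subunit, which is described with the other pathway genes. All 32 were found in a RefSeq table of 21631 protein-coding genes. A gene was called occupied when both Deaf1 ChIP-seq replicates had a peak summit (the position of highest signal) within 1 kb of the same end of its RefSeq span. By this rule 27 of the 32 proteasome genes were occupied, 84.4%, where 51.6% of all protein-coding genes were. The peaks at these genes were of modest height. The median fold enrichment (signal at the summit over the caller's estimate of local background) of the occupied proteasome genes was 12.4 in replicate 1 and 9.67 in replicate 2, where that of all 11164 occupied genes was 16.4 and 15.2. All 8 listed lid genes and all 4 non-ATPase base genes were occupied, as were 5 of 6 ATPase genes, 5 of 7 alpha ring genes and 5 of 7 beta ring genes. Psma6, Psma7, Psmb2, Psmb3 and Psmc5 were not.

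Deaf1 is a DNA-binding transcription factor with a SAND domain, and the motif TTCG is the core of the sites it is known to bind. The proteasome is the large protease that degrades proteins tagged with ubiquitin. Its barrel-shaped core particle has outer rings of alpha subunits, which gate the entrance, and inner rings of beta subunits, which include the proteolytic sites. The regulatory particle caps the core: its base holds a ring of ATPases that unfold substrates and the large scaffold subunits, and its lid removes the ubiquitin chain. In skeletal muscle the proteasome is known for its part in the breakdown of contractile proteins during atrophy.

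The material was C2C12, a mouse myoblast line that can be differentiated in culture. The sample labels call the cells myocytes, and the series' design text calls them differentiated myoblasts. There were 2 Deaf1 ChIP samples, made with an antibody against Deaf1 from formaldehyde-fixed, enzymatically digested chromatin, and 2 input chromatin samples, for which no peak list was analysed here. The protocol also names a control IgG precipitation, which was not analysed here. Only 1 condition was studied, so nothing below compares cell states, and no test was made. The labels number the replicates without saying whether they came from separate cultures, so the spread between them may be technical. Peak lists hold no expression values, so the labelled cell type was not checked against its markers. Replicate 1 had 65606 peaks and replicate 2 had 26503, and read depth is not known from these lists. A fold is the authors' value for a peak and is set against other peaks of the same list.

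The first set of sequences shows the 250 bases before the annotated start of the gene with the highest mean fold among the alpha, beta, ATPase and non-ATPase base genes, read 5′ to 3′ on the coding strand (RefSeq, GRCm38.p6). Capitals mark TTCG on either strand (CGAA when it lies on the other strand). Psmd3, the lid gene with the highest mean fold, has no entry in the promoter table.
Psma4 (chr9:54950609-54950858, plus strand): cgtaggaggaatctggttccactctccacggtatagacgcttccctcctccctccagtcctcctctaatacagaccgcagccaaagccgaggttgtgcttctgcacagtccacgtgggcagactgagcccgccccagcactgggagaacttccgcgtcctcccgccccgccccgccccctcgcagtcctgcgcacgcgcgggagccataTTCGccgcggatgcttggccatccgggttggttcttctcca
Psmb4 (chr3:94886959-94887208, minus strand): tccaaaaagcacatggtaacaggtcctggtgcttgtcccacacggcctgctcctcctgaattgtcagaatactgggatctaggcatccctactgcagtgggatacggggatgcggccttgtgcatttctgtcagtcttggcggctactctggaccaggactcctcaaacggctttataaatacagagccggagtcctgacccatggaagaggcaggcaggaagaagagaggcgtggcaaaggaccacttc
Psmc2 (chr5:21785025-21785274, plus strand): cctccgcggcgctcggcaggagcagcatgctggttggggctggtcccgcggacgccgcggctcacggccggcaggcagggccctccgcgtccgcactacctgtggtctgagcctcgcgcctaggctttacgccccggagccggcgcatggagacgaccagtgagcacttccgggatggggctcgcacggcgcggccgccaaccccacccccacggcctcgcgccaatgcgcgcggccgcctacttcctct
Psmd4 (chr3:95042615-95042864, minus strand): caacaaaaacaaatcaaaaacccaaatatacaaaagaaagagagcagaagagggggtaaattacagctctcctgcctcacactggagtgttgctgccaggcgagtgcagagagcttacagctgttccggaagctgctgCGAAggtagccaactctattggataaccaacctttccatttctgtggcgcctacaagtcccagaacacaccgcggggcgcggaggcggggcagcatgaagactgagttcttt

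The next sequences belong to the other 3 genes in which the summits of both replicates fell within these 250 bases, the stretch under the peak itself. Psmc2, printed above, is the fourth such gene.
Psmc4 (chr7:28050093-28050342, minus strand): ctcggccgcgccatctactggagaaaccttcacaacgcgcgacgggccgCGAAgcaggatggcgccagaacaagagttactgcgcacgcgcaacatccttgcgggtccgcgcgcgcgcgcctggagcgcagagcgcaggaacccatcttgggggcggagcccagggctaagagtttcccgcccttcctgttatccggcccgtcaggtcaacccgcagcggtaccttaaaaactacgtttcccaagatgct
Psmc6 (chr14:45329574-45329823, plus strand): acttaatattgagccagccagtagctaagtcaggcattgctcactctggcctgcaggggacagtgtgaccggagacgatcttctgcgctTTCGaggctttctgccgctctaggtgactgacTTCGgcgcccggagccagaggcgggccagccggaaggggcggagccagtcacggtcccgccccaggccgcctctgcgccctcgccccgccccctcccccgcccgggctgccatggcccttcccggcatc
Adrm1 (chr2:180171338-180171587, plus strand): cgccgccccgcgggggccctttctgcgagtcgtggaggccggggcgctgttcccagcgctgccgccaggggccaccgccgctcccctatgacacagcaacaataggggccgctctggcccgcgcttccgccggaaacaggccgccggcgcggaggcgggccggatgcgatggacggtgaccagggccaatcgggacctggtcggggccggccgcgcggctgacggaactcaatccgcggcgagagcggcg

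The last set shows the genes that were not occupied and that have an entry in the promoter table. Psma6 is shown at both of its annotated starts, because its only peaks found in both replicates lay at the inner one.
Psma6, outer start (chr12:55383972-55384221, plus strand): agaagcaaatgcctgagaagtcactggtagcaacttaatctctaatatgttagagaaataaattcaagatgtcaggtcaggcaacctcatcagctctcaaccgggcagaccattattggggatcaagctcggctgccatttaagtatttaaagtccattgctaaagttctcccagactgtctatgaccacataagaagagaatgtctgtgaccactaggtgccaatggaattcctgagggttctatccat
Psma6, inner start (chr12:55398575-55398824, plus strand): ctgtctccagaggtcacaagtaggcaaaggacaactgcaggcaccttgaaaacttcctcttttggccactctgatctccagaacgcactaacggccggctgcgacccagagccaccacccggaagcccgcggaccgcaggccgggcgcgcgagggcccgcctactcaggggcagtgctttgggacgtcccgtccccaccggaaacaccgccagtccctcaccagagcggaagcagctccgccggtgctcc
Psma7 (chr2:180042465-180042714, minus strand): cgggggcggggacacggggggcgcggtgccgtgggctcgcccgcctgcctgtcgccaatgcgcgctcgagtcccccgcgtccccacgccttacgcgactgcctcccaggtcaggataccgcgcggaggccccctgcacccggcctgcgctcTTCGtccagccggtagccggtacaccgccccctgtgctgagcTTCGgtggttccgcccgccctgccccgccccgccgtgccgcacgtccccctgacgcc
Psmb3 (chr11:97703184-97703433, plus strand): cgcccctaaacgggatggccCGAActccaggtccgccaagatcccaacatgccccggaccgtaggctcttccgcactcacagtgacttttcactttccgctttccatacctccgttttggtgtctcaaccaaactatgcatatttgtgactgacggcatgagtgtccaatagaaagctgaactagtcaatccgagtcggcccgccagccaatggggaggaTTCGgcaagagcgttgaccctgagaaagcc
Psmc5 (chr11:106255935-106256184, plus strand): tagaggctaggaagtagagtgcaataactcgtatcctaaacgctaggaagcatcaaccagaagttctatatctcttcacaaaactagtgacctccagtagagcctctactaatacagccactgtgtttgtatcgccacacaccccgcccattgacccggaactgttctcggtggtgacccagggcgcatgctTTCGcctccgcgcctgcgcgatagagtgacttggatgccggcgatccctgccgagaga

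Alpha ring genes had the lowest median fold of the 5 classes in replicate 2. Psma4, whose product helps to close the gate of the core particle, stood highest with folds of 21.1 in replicate 1 and 13.9 in replicate 2 (chromosome 9, span 54950781 to 54958034). Psma1 had folds of 16.3 and 5.69 (chromosome 7, 114264550 to 114276116), and Psma5 had 12.1 and 6.20 (chromosome 3, 108256926 to 108279952). In these 3 genes replicate 1 was the higher. Psma2 had folds of 6.99 and 5.31 at summits 260 and 297 bp outside its start end (chromosome 13, 14613242 to 14625673). At Psma3 the summits that made the call gave 5.07 and 4.55 (chromosome 12, 70969283 to 70995877). Only 0.932% of all occupied genes had a lower fold in replicate 1, and 2.60% did in replicate 2. Over the 5 occupied alpha genes the median fold was 12.1 in replicate 1 and 5.69 in replicate 2, and replicate 1 was higher in all 5. Replicate 1 was also the higher in 59.3% of all occupied members and in 59.4% of all occupied genes.

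The call at Psma3 did not rest on the peak at its annotated start. The span of this gene begins far before that start, at 70974623, and the summits near the span end lay 6067 and 6094 bp upstream of it, 564 and 591 bp from an end of the tRNA gene n-TKctt17. A separate peak found in both replicates stood 419 bp downstream of the annotated start in replicate 1 and 239 bp downstream in replicate 2. Its folds were 15 and 12, with pileups (fragments covering the summit, recovered from the deposited fold and p) of 64 and 37. By that peak Psma3 lies near the middle of the alpha genes in replicate 1 and near the top in replicate 2.

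Psma6 also had its peaks at an inner annotated start. The table gives it a start at the lower end of its span (chromosome 12, 55384222 to 55418459), where the nearest summit was 4446 bp inside in replicate 1 and 14470 bp inside in replicate 2. At its other start, 55398825, replicate 1 had a summit 240 bp downstream with a fold of 6.81 and replicate 2 had one 133 bp upstream with a fold of 9.17. A further replicate 1 peak with a fold of 4.05 overlapped that replicate 2 peak. The 250 bases before the outer start hold 2 CpG and 42.8% G or C, and those before the inner start hold 20 CpG and 65.6%. For Psma7 (chromosome 2, 180036367 to 180042464) no summit came near: the closest were 11619 and 11612 bp beyond its lower end, while its start is at the upper one. Its promoter is the richest in G and C of all 28 annotated member promoters, with 77.2% and 35 CpG.

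Among the beta ring genes, the 3 that carry the proteolytic sites had modest peaks. Psmb5, the chymotrypsin-like subunit, had folds of 9.90 in replicate 1 and 4.55 in replicate 2 (chromosome 14, 54614120 to 54617995). Psmb6, the caspase-like subunit, had 7.34 and 8.34 (chromosome 11, 70525324 to 70527858), and Psmb7, the trypsin-like subunit, had 9.57 and 13.7 (chromosome 2, 38588046 to 38643952). The replicates ranked these differently, with Psmb5 highest in replicate 1 and lowest in replicate 2. Psmb4, which has no proteolytic site, was the highest beta gene with 17.5 and 14.8 (chromosome 3, 94884324 to 94886958). Psmb1, also without such a site, had 14.7 and 9.08 (chromosome 17, 15475721 to 15498276). The median of the 5 occupied beta genes was 9.90 in replicate 1 and 9.08 in replicate 2.

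Psmb2 and Psmb3 were not occupied. At Psmb2 (chromosome 4, 126677637 to 126709715) replicate 1 had a peak only 11 bp outside the lower end. Its pileup of 41 fragments stood on a background of 10, which gave a fold of 3.81. In replicate 2 the nearest summits were 40886 bp beyond the lower end and 25652 bp beyond the upper one. Psmb3 (chromosome 11, 97703434 to 97713500) had summits of both replicates outside its start, 3213 bp away with a fold of 20.8 in replicate 1 and 2949 bp away with 13.2 in replicate 2. Those lie beyond the window, and replicate 1 alone had a peak of fold 7.34 inside the gene, 1457 bp from its far end.

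The ATPase genes had the lowest median in replicate 1, 7.10, with 7.19 in replicate 2. Psmc2 had the highest mean, with folds of 13.6 and 16.8 (chromosome 5, 21785275 to 21803787). Psmc1 had 14.7 and 5.45 (chromosome 12, 100110202 to 100123364) and Psmc4 6.25 and 11.0 (chromosome 7, 28041702 to 28050092). The replicates disagreed in opposite directions at these last genes. Psmc6 had nearly equal folds, 6.85 and 7.19, at summits on the same base (chromosome 14, 45329823 to 45349074). Psmc3 had 7.10 and 4.94 (chromosome 2, 91054016 to 91059438). Psmc5, the ATPase gene without a peak (chromosome 11, 106256185 to 106263112), had its nearest summits 39111 and 39138 bp beyond its start end, so neither replicate showed a peak anywhere at the gene.

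All 4 non-ATPase base genes were occupied. Psmd1, one of the large scaffold subunits, had folds of 17.0 in replicate 1 and 13.3 in replicate 2 (chromosome 1, 86064619 to 86139295). Psmd2, the other, had 15.5 and 12.3 (chromosome 16, 20651122 to 20663414). Their values were close to each other in both replicates. Psmd4, a ubiquitin receptor, had 16.9 and 16.3 (chromosome 3, 95032688 to 95042614), above the median of occupied genes in both lists. Adrm1, also a ubiquitin receptor, had 8.65 and 9.67 (chromosome 2, 180171588 to 180176283). Its low fold went with the largest background of all occupied members, given below.

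The lid genes were all occupied and held the 2 members with the highest mean fold. Psmd3 had folds of 20.6 in replicate 1 and 18.6 in replicate 2 (chromosome 11, 98682554 to 98695978). Psmd11, whose product helps to clamp the lid onto the core particle, had 17.8 and 21.2 (chromosome 11, 80428615 to 80473248). Psmd14, the enzyme that cuts off the ubiquitin chain, had 13.8 and 14.8 (chromosome 2, 61711694 to 61800376). Its catalytically inactive partner Psmd7 had 14.5 and 19.8 (chromosome 8, 107580380 to 107588482). Both genes of this pair were below the median of all occupied genes in replicate 1, and in replicate 2 only Psmd7 was above it. The other 4 lid genes had lower mean folds. Psmd6 had 12.4 and 9.30 (chromosome 14, 14112185 to 14120945), Psmd12 11.3 and 12.3 (chromosome 11, 107479528 to 107498036), and Psmd13 11.8 and 6.20 (chromosome 7, 140882394 to 140898642). Psmd8, the lid gene with the lowest mean fold, had 5.64 and 6.45 (chromosome 7, 29174187 to 29180673). The lid median was 13.1 in replicate 1 and 13.6 in replicate 2.

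**Figure D1:**
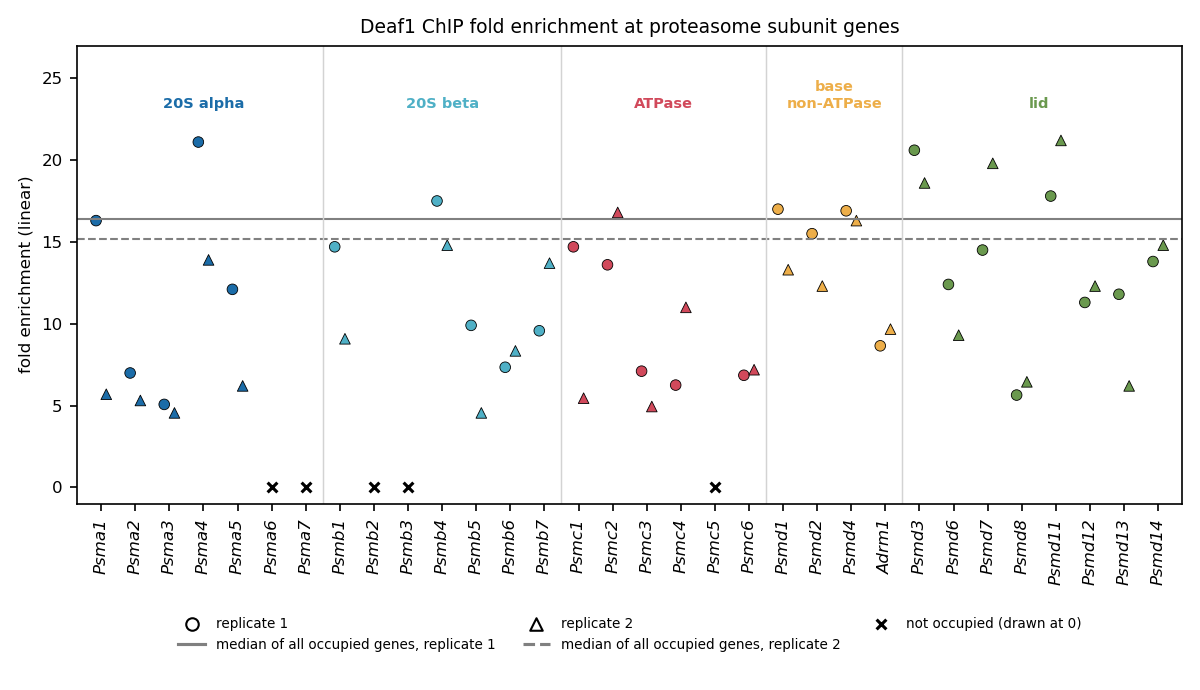
Fold enrichment (linear axis) of the highest summit within 1 kb of the occupied end for each proteasome gene, by subunit class, with circles for replicate 1 and triangles for replicate 2; crosses at 0 mark the 5 genes that were not occupied. Most points lie under the lines at 16.4 and 15.2, the medians over all occupied protein-coding genes in replicates 1 and 2.

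Against all occupied genes the proteasome genes lay in the lower and middle range of fold. Of the 27 occupied members, 6 exceeded the median of all occupied genes in replicate 1, 5 did so in replicate 2, and 19 were at or below it in both. The 3 above it in both were Psmd3, Psmd4 and Psmd11. None of the 27 reached the top 10% of occupied genes, which began at 24.6 in replicate 1 and 26.9 in replicate 2. Across the 27 genes, which share their 2 libraries, the folds of the replicates had a Spearman rho of 0.607, and across all occupied genes 0.778. The ratio of the replicates passed 2 in 3 members, Psma1 (2.86), Psmc1 (2.69) and Psmb5 (2.17), each higher in replicate 1. That is 11.1% of occupied members, where such a ratio in either direction was found in 7.64% of all occupied genes. These ratios take the highest summit of each replicate, which at Psmd14 were different summits. Its upstream summit had folds of 6.12 in replicate 1 and 14.8 in replicate 2, and its downstream summit 13.8 and 9.17. The core particle genes had medians of 11.0 and 7.27, with 10 of 14 occupied, and the regulatory particle genes had medians of 13.6 and 12.3, with 17 of 18 occupied. These medians run only over genes that passed the call, and no test was made between the classes.

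**Figure D2:**
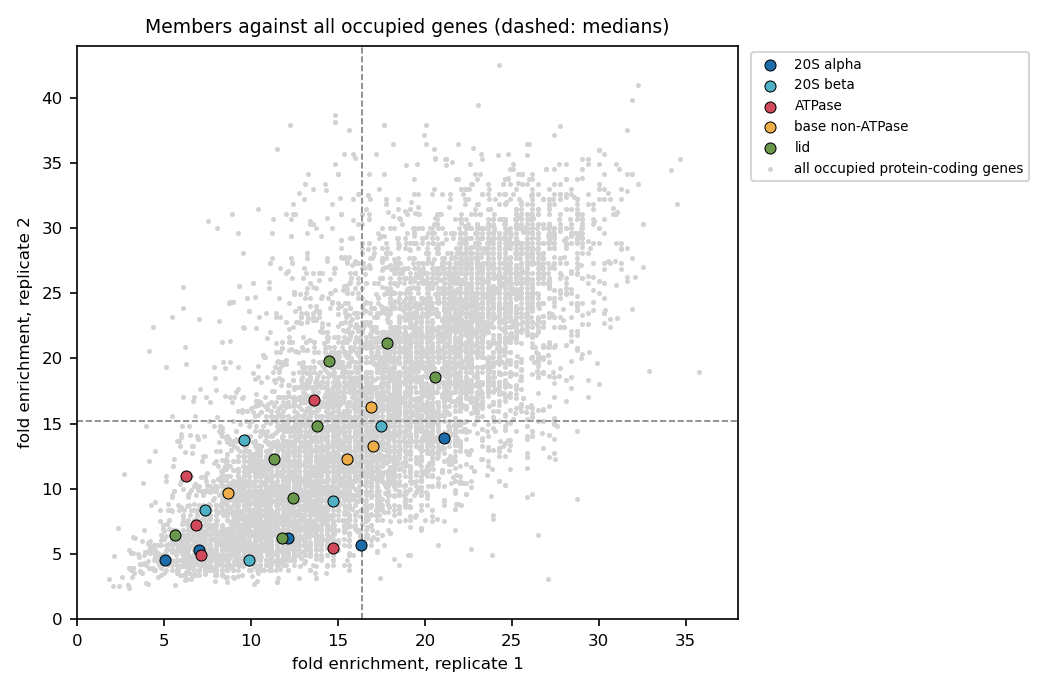
Fold enrichment in replicate 1 (horizontal) and replicate 2 (vertical) for the 27 occupied proteasome genes, coloured by class, and all 11164 occupied protein-coding genes in grey; dashed lines are the medians of the grey points, 16.4 and 15.2. Only Psmd3, Psmd4 and Psmd11 lie above both lines.

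A fold depends on the local background as well as on the signal, and both could be recovered for each peak. The median summit pileup of the occupied members was 50 fragments in replicate 1 and 34 in replicate 2, where that of all occupied genes was 60 and 45. For the members the median background was 2.94 in replicate 1 and 1.83 in replicate 2, and for all occupied genes 2.13 and 1.64. The members' background was at its lowest level (within 0.01 fragments) in 25.9% of cases in replicate 1 and 44.4% in replicate 2, where this was so for 57.1% and 62.3% of all occupied genes. Lower pileup and higher background thus both went with the lower folds, and 8 of 27 members were above the median pileup of occupied genes in each replicate. Why the backgrounds differ was not tested.

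Adrm1 shows how far the readings can part. Its pileup was 77 fragments in replicate 1 (exact Poisson interval at 95%, 60.8 to 96.2) and 82 in replicate 2 (65.2 to 102), the most of any member in replicate 2. Its backgrounds of 8.01 and 7.58 fragments were the highest of the occupied members in each list, and its folds were under 10. Psmc6 had pileups of 47 and 49 on backgrounds of 6.01 and 5.96. Psmc4 had 47 and 28, on 6.68 in replicate 1 and on the lowest level, 1.64, in replicate 2. Its fold was lower in replicate 1, where the pileup was higher. At the weak end, Psmb5 and Psma3 had a replicate 2 pileup of 11 (interval 5.49 to 19.7), and Psma2 had 13 (6.92 to 22.2). Psma1 had 50 fragments in replicate 1 (37.1 to 65.9) and 14 in replicate 2 (7.65 to 23.5). Both backgrounds there were at the lowest level, and the 2 intervals did not overlap. The lists do not give the depth needed to scale one to the other. These intervals cover counting error only.

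**Figure D3:**
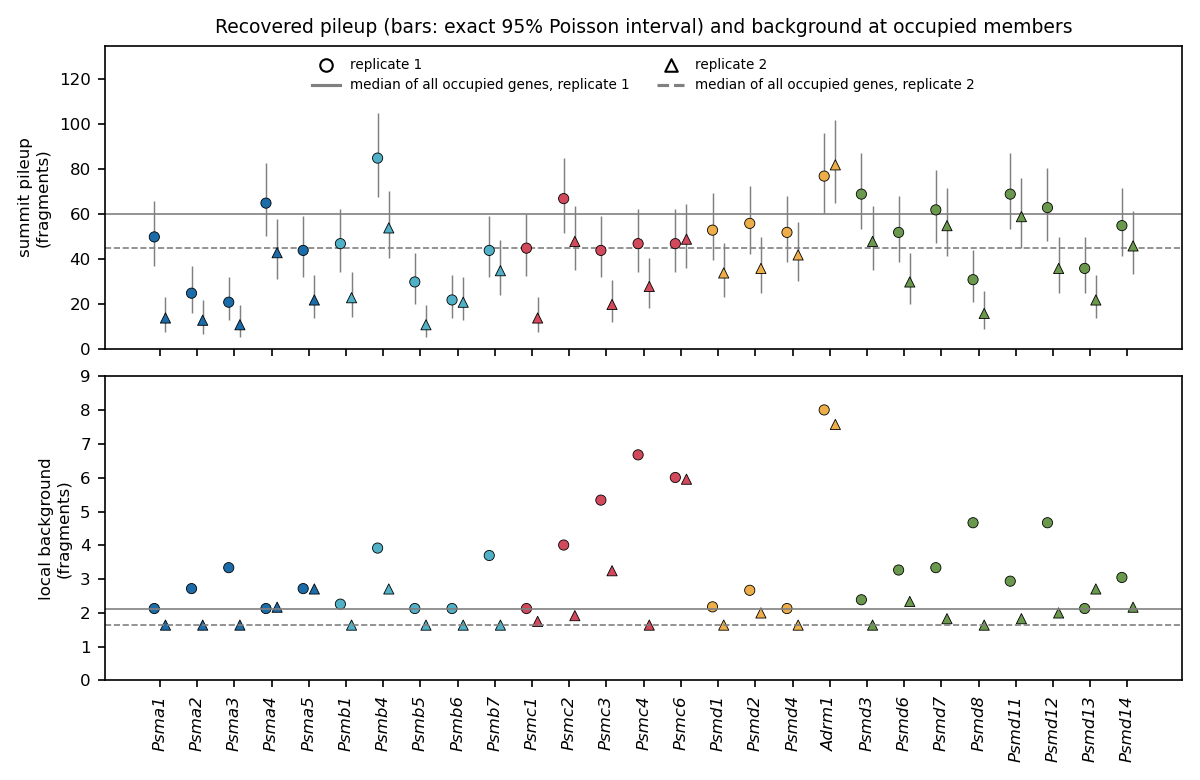
Recovered summit pileup in fragments, with exact Poisson intervals at 95% as bars (upper panel), and recovered local background in fragments (lower panel) for the 27 occupied proteasome genes, circles for replicate 1 and triangles for replicate 2. Lines give the medians over all occupied genes, 60 and 45 fragments above and 2.13 and 1.64 below; Adrm1, Psmc4, Psmc6 and Psmc3 stand out in background.

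Most summits lay just downstream of the start of transcription. An annotated start was known for 26 of the 32 members, all but Psmb1, Psmb2, Psmb7, Psmc3, Psmd3 and Psmd7. All 22 occupied members with such an entry were occupied at the start end, which is the upstream end of the span by strand. This was so for 96.0% of all occupied genes with an entry. The start end need not be an annotated start, and at Psma3 it lay far upstream of it. Measured from the annotated starts themselves, 23 members had summits of both replicates within 1 kb, Psma6 now included. In 15 of them both summits were downstream, at a median of 175 bp in replicate 1 and 178 bp in replicate 2. In 6 both were upstream, namely Psma2, Psmc2, Psmc4, Psmc6, Adrm1 and Psmd13, and in Psma6 and Psmd14 they lay on either side. For the peaks called by span ends, both summits were downstream of the nearest start in 14 of 22 members, upstream in 7 and split in 1. Among all occupied genes 62.7% had both downstream, 26.2% both upstream and 11.1% were split.

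At Psmd14 each replicate had the same pair of summits and differed in which was higher. Replicate 1 had folds of 6.12 at 77 bp upstream and 13.8 at 231 bp downstream, and replicate 2 had 14.8 at 59 bp upstream and 9.17 at 227 bp downstream. Psmd2 belongs with the downstream group although its summits lay 675 and 658 bp inside the span end, since its annotated start is itself inside the span and the summits were 145 and 128 bp past it. The summits of the replicates lay within 100 bp of each other in 23 of the 27 occupied members, with a median gap of 24 bp. The greatest gap, 290 bp, was that of Psmd14. Gaps over all occupied genes were not measured. None of the 27 was occupied at both ends, where 8.0% of all occupied genes were.

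**Figure D4:**
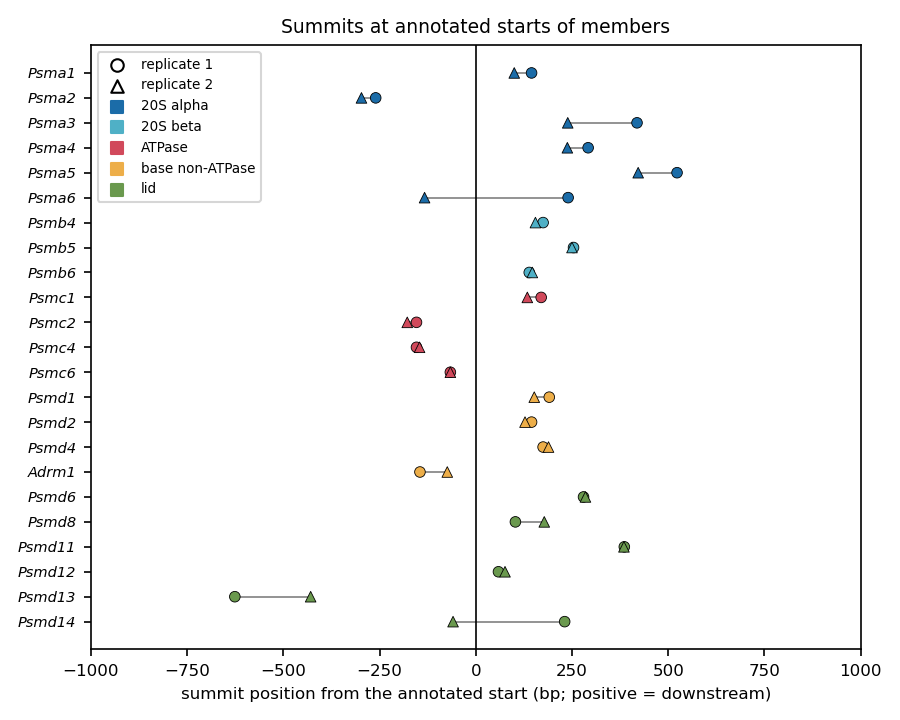
Position of the highest summit of each replicate relative to the annotated start, in bp and positive downstream, for the 23 proteasome genes with summits of both replicates within 1 kb of it; circles are replicate 1, triangles replicate 2, and a line joins them. Points gather between the start and 400 bp downstream, where 13 genes have both summits.

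At 8 of the 27 occupied members another gene's end lay within 1 kb of both summits, and 4 of these neighbours were protein-coding. The share of all occupied genes with such a neighbour was not counted, so this is not read as a trait of the members. Psmc2 starts 11 bp from an end of Dnajc2, which encodes a ribosome-associated chaperone, and the summits lay 143 and 167 bp from that end. The Psma2 summits were nearer to Mrpl32, a mitochondrial ribosomal protein gene on the opposite strand whose end was 55 and 92 bp away, than to Psma2 itself. At Psmd13 the highest summits, 626 and 429 bp upstream of its start, reached Sirt3, the gene of a mitochondrial deacetylase on the opposite strand, at 541 and 344 bp. Replicate 1 had a further summit 28 bp inside Psmd13 with a fold of 5.59, which had no summit of replicate 2 beside it. Psma4 shared its peak with AY074887, whose end was 197 and 143 bp away. The noncoding neighbours were the tRNA gene n-TKctt17 at Psma3, Mir686 at Psmb5, the lncRNA Gm29886 at Adrm1, and Gm13778 at Psmc3, which the table classes as neither coding nor lncRNA. Mir686 lies inside the Psmb5 span, 956 and 960 bp from the summits, which were 254 and 250 bp from the Psmb5 start. At these 8 members distance alone does not assign a peak to one gene over the other. The other 19 had no other gene end in reach, with median folds of 14.5 and 12.3.

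The TTCG motif was found in the 250 bases before the start in 17 of 23 annotated promoters of occupied members (73.9%), where 52.2% of the promoters of all occupied genes and 43.0% of all 21045 promoters of protein-coding genes held it, on either strand. Among promoters of members that were not occupied, 3 of 5 held it, where 32.8% of the promoters of all genes not occupied did. Those 3 were both genes without any peak nearby, Psma7 with 2 copies and Psmc5 with 1, and Psmb3 with 2. The motif was absent before the starts of Psmb4, of Psmc2 at its occupied start, and of Adrm1, Psmd6, Psmd12 and Psmd13. Among the 4 genes with both summits inside the window, only Psmc4 with 1 copy and Psmc6 with 2 held it, and the nearest copy to a summit was 45.5 bp away in Psmc4 and 61.5 bp in Psmc6. Psmd8, the lid gene with the lowest mean fold, had the most copies, 4. The longer form TTCGGG stood in 2 of 23 promoters of occupied members (8.70%), and in 8.86% of those of all occupied genes.

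Other motifs were counted in the same windows and on both strands. The ETS core CCGGAAG stood in 9 of 23 promoters of occupied members (39.1%), where 12.4% of the promoters of all occupied genes and 9.08% of all promoters held it. The core of NRF1 sites, TGCGCA, was in 5 of 23 (21.7%), where the share was 11.4% for all occupied genes and 8.06% for all promoters. One form of the antioxidant response element, TGACNNNGC, the kind of site used by the proteasome regulator Nfe2l1, was likewise in 5 of 23 (21.7%), against 12% for all occupied genes and 10.5% for all promoters. CCAAT was in 8 of 23 (34.8%), against 33.7% and 35.6% in the same order, and the YY1 core AAGATGG in 2 of 23 (8.70%), against 3.94% and 4.17%. TTCGGG always contains TTCG, and some of the other strings can share letters with it, so these counts are not independent of each other. The promoters of occupied members had a median of 57.6% G or C and 16 CpG, and those of all occupied genes 61.6% and 17. A match is a string of letters and not a site, and no test was made of these shares.

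Other genes of the pathway, taken from a separate list, were occupied about as often, with higher median folds, and no test was made of either difference. Of 38 listed, 37 were found (Paaf1 was not), and 30 of the 37 were occupied, 81.1%, with median folds of 19.9 in replicate 1 and 18.1 in replicate 2. The share over all protein-coding genes was 51.6%. All 5 genes that control proteasome gene transcription or nuclear import were occupied. Akirin2, which brings proteasomes into the nucleus, had the highest mean with folds of 20.1 and 24.7, although Nfe2l2 (23.4), Ngly1 (22.8) and Ddi2 (20.2) had higher folds in replicate 1. Nfe2l1, the transcription factor that raises proteasome gene expression when the protease is impaired, was the lowest in both replicates by its span-end peak, with 17.9 and 10.5. At an annotated start inside its span Nfe2l1 had another peak in both replicates, with folds of 21.1 and 10.2. All 5 genes of core particle assembly were occupied. Psmg2 was the highest in both replicates with 19.4 and 29.6, at a peak shared with Cep76. Psmg3 had 9.95 and 7.25, and Pomp, the proteasome maturation factor, 6.18 and 12.8, so that the lowest gene differed between replicates. For assembly of the regulatory particle 2 of 3 were, Psmd5 with 18.5 and 10.3 and Psmd9 with 14.0 and 10.6. The small lid subunit Sem1 had 21.1 and 19.

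Among activators and the inhibitor 4 of 5 were occupied. Psme2 had folds of 21.4 and 15.7, at summits shared with Rnf31, and Psme1 had 20.1 and 9.52. Psme3 had 14.9 and 18.3, and Psme4 had 13.8 and 18.1, so the replicates ordered these 4 genes differently. The proteasome-bound deubiquitinases and the ligase were occupied in 3 of 3 cases, with Ube3c at 25.6 and 26.7 and Usp14 at 17.3 and 15.2. For ubiquitin and substrate delivery 8 of 10 were occupied, the lowest being the polyubiquitin gene Ubb at 9.26 and 9.86. Subunits restricted to certain tissues or induced in immunity were the class with the lowest share, 2 of 5 (40.0%), near the share over all protein-coding genes for so few genes. Psmb9 and Psmb8, which replace Psmb6 and Psmb5 in the immunoproteasome, had folds of 20.4 and 12.1 and of 8.62 and 5.31, and both calls were shared with ends of Tap1, the peptide transporter gene that lies between them.

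In 7 of these other genes the call was not made. Psma8, the alpha subunit of the testis, had no summit nearer than 21207 bp in replicate 1 and 21215 bp in replicate 2, and Psmd10, an assembly chaperone gene, none nearer than 134924 and 151116 bp. Psmb10 had summits of both replicates just past the window, 1165 and 1212 bp inside its start. Psmb11, the beta subunit of the thymus, had a replicate 1 peak of fold 6.39 at 345 bp inside its start and no replicate 2 summit within the window. Rps27a, a ubiquitin fusion gene, likewise had a replicate 1 peak of fold 4.38 at 222 bp inside its upper end without a partner. Psmf1, the inhibitor gene, and Uba1, the ubiquitin-activating enzyme gene, had peaks of both replicates at an annotated start inside the span. The folds there were 11.9 and 3.92 at Psmf1, and 6.68 and 8.34 at Uba1.

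The share of occupied proteasome genes changed little with the call rule. With a 500 bp window it was 25 of 32, without Psma3 and Psmd2, where 43.2% of all protein-coding genes were occupied. With 2 kb it was 27 (56.4% of all genes) and with 5 kb 28, Psmb3 added (61.1%). A fold of 5 or more in both replicates left 24, without Psma3, Psmb5 and Psmc3 (48.8% of all genes), and a −log10 q of 5 or more left 25, without Psma3 and Psmb5 (50.1%). Psma3 was the gene lost most often. Replicate 2 alone gave 27 (52.3%) and replicate 1 alone 28, with Psmb2 added (61.8%). Summits at either end gave 27 (51.8%), replicate 1 shortened to the length of replicate 2 gave 26, without Psma3 (50.3%), and any base of a peak in the window gave 27 (53.6%). With only the start end of the span, 22 of the 26 members with an entry were occupied (49.2% of 17274 genes with one). With the annotated start in place of the span end 23 of these 26 were, Psma6 added (54.0%). In each setting the members named here were the only ones lost or added.

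**Figure D5:**
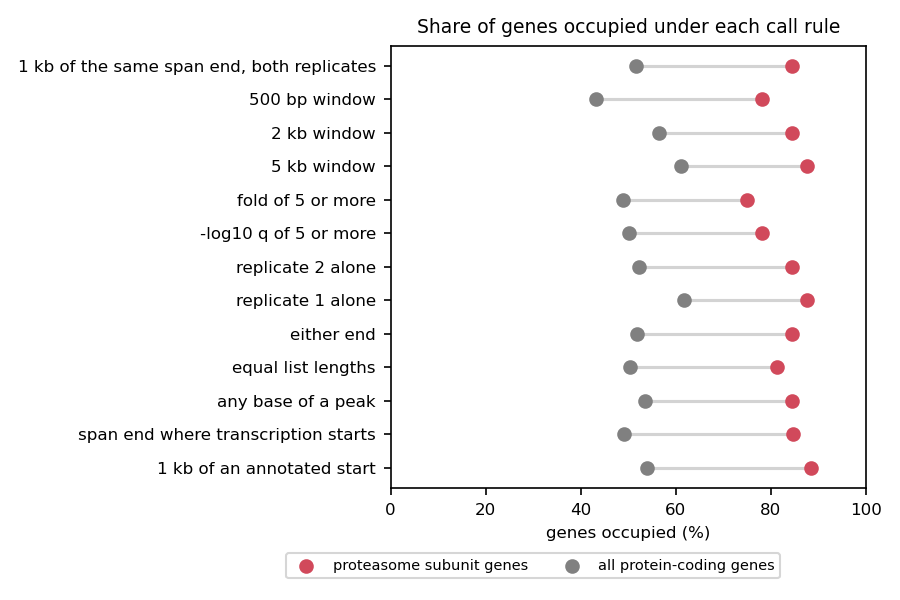
Percentage of genes occupied under each call rule, red for the proteasome genes and grey for all protein-coding genes. The red points run from 75.0% (the fold minimum of 5) to 88.5% (annotated starts), and the grey points from 43.2% to 61.8%.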

How the data were processed

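The submitters' processing notes name BWA, MACS2 and the build mm10. Which program versions, settings and control sample applied is not given in the sources used here. For each ChIP replicate the authors deposited a separate peak list. Each peak's fold ratio, −log10 p and −log10 q are deposited values. The deposited score is −log10 p multiplied by 10 with decimals dropped (true of 100% of peaks). Positions were converted to 1-based coordinates.

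The members and the gene lists were chosen with earlier results of these data known. Every member was to be named, with the fold of its highest summit in the window. Gene spans, strands and promoters came from RefSeq tables of GRCm38.p6, the assembly behind mm10. A span covers all RefSeq models of a gene. Pileup and background were solved from fold (1 added to each) and a Poisson p; the largest misfit in −log10 p at the listed genes was 1.65e-05, and the method was tested on simulated data. The lowest background is that of 3000 sampled peaks per list. The alternatives were other windows, minimum fold or q, single replicates, list lengths and gene ends, and the annotated-start rule was added after seeing the data. Python 3.11.15, pandas 2.3.3, numpy 2.4.6, scipy 1.17.1 and matplotlib 3.10.9 were used.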

Additional observations from a re-analysis of the deposited data

How the results depend on the processing

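No paired analysis was possible because no result came from a test and no peak list of the inputs was analysed. There were 7 counts of occupied genes: all members, the 5 classes and the other pathway genes. Each stayed within 1.5 times its reference count in all 12 alternatives. For the rules that use only start ends or annotated starts, the reference was recounted over genes with an entry. The beta genes, for example, were 3 of 4 there and 5 of 7 in the main call. None of the 7 counts could have risen past that limit, because each list holds too few further genes, as with 27 of 32 members. Only a fall could have been seen. The single replicates gave 27 to 28 of the 32 members. The median fold was 14.5 in replicate 1 and 12.3 in replicate 2 when members with another gene end in reach were left out; the cause was not tested. Taking the nearest summit in place of the highest changed 4 of 54 member folds, those of Psma2 in replicate 2 (4.11), Psma5 in replicate 1 (11.6), Psmd13 in replicate 1 (5.59) and Psmd14 in replicate 1 (6.12). Depth is unknown, and pileups near 11 fragments limit the calls at Psma3 and Psmb5.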

Other observations

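Peaks at proteasome genes away from the occupied ends came almost only from replicate 1. Deeper than 1 kb inside the spans, replicate 1 had 15 peaks in 10 members with folds of 3.96 to 15, and replicate 2 had 2 peaks in 2 members, those at the inner starts of Psma3 and Psma6. At span ends that were not occupied, 7 members had a replicate 1 peak within 1 kb, with folds of 3.81 to 7.98, and 0 had one in replicate 2. The highest of these lay 955 bp inside the far end of Psmd11, and another lay 383 bp inside the far end of Psmd3, with a fold of 7.34. Replicate 1 has the longer list, and whether these peaks would appear at equal depth was not tested. The same counts were not made over all genes, so they are not read as particular to proteasome genes.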
